A study of Mus musculus with 12 samples.

Results

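The transcripts described here encode MHC class I molecules, the machinery that loads them with peptide and the inducible proteasome subunits that help to cut those peptides. They are 10 genes given by name (B2m, H2-K1, H2-D1, H2-T23, Tap2, Tapbp, Psmb8, Psmb9, Psmb10 and Nlrc5). A gene counted as measured where a probe set listed its symbol alone, which held for 9 of the 10, out of 22180 genes measured in this way. H2-D1 was the exception, since the single probe set that lists it also lists H2-Q2, and no value is given for it. Tapbp had 2 probe sets of its own and the other 8 genes had 1 each. The brightest probe set stood for each gene.

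The tissue was liver of male C57BL6/J mice aged 8 to 10 weeks. Every animal had an Ad5 adenovirus injected into the tail vein 4 days before it was killed, at 3 pm and after 6 h of fasting. The virus carried GFP, green fluorescent protein, in the 6 control samples (GFP 1 to 6) and human ApoF, an apolipoprotein also known as lipid transfer inhibitor protein, in the other 6 (hApoF 7 to 12). Both groups had therefore received a virus, and uninjected liver was not analysed here. The sources used here give neither the dose nor the promoter of the viruses. They also do not say that each sample came from its own animal, and the p-values then reflect only how far these samples spread, which may be technical.

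Values are log2 intensities from the RMA procedure on a mouse gene array, and a difference of 1 is a 2-fold change. Array medians lay between 4.93 and 5.03. GFP 4 stood apart from the other GFP arrays in the shape of its values, with a lower quartile of 3.80 against 3.66 to 3.72, where hApoF arrays had 3.74 to 3.80, and results that rest on it are given with and without it. All 11 measured hepatocyte markers were bright in both groups. Their mean level per array was 12.54 to 12.63 in GFP and 12.68 to 12.72 in hApoF livers. The array measures whole liver, in which fewer cells of a type and less RNA per cell cannot be told apart. Differences are hApoF minus GFP, fitted with limma over all 22180 genes, with Benjamini-Hochberg adjustment over all of them and a threshold of 0.05 on the adjusted p. In either direction 1533 of all genes passed, and 1988 passed without GFP 4, so counts without that array are read against this rise.

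MHC class I molecules carry short peptides from inside the cell to its surface, where CD8 T cells inspect them. The proteasome cuts the peptides, the TAP transporter moves them into the endoplasmic reticulum, and tapasin holds the empty class I molecule at TAP until a peptide fits. Interferon gamma raises most of these genes together and exchanges the catalytic proteasome subunits for inducible ones. Resting hepatocytes carry little class I, and viral infection of the liver is known to raise it.

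None of the 9 genes passed the test in either direction, while 6.91% of all genes did. Unadjusted limma p-values lay under 0.05 for 1 of the 9, Psmb9, against 21.3% of all genes. Exact permutation p-values lay under 0.05 for 1 of the 9, H2-T23. The permutation test was not run over all genes, so no such share stands beside its count. The differences ran from -0.35 in Psmb9 to 0.16 in H2-T23, 5 of them above 0 and 4 below, with a median of 0.02 against 0.03 over all genes. The values of both groups overlapped in each of the 9 genes, and groups did not overlap in 4.98% of all genes. Shares of all genes cover genes of every level, dim ones included, while all 9 genes lay above the median level. In a separate fit of the 11090 genes above that level 2107 passed in either direction. None of the 9 passed there (lowest limma adjusted p = 0.111). The range of differences that the data allow is given for each gene as its 95% interval from the fit of all genes, not adjusted for their number.

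**Figure D1:**
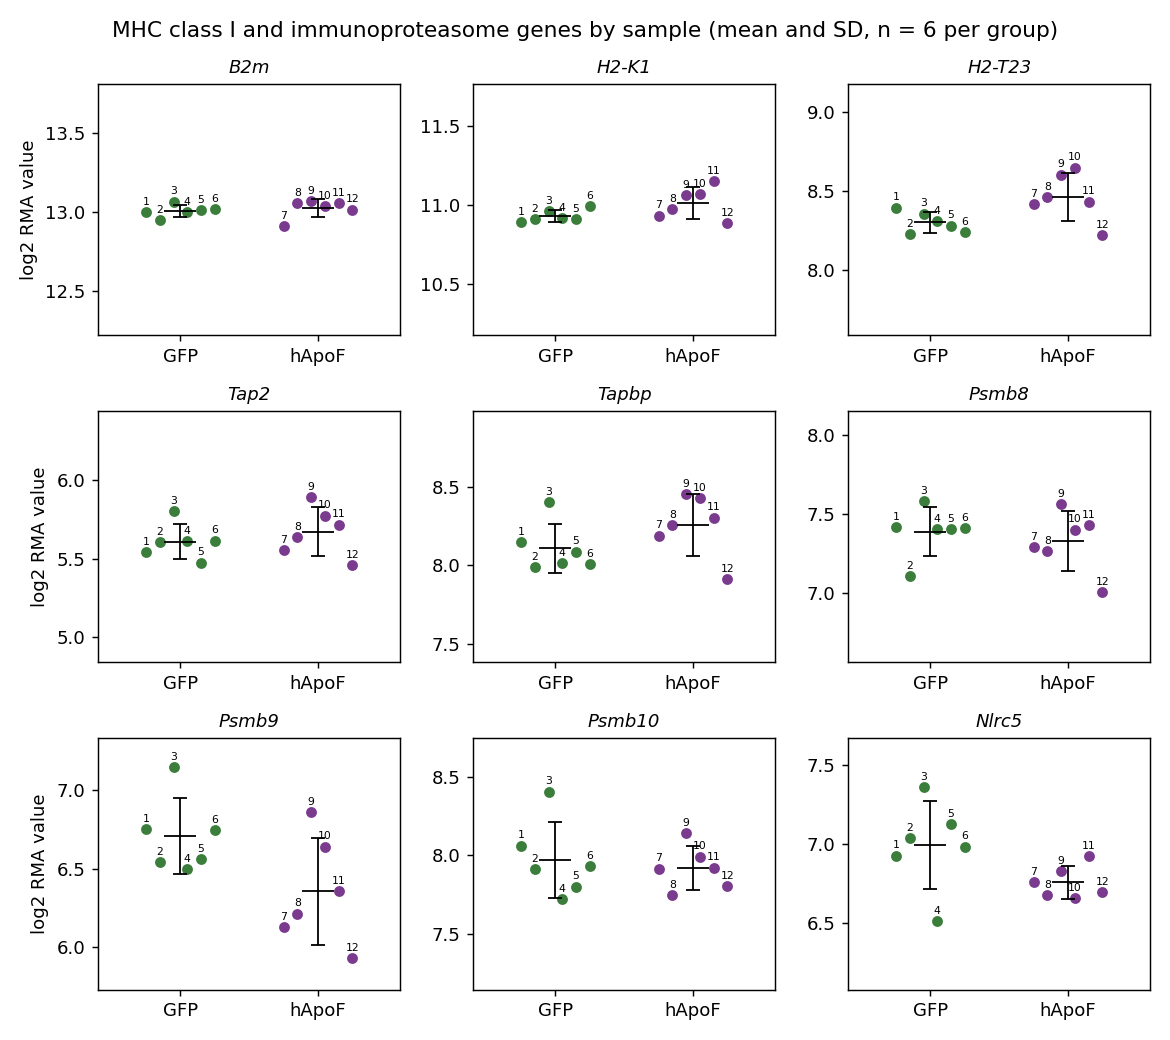
Log2 RMA value (vertical axis, each panel spanning the same range of 1.6) of the 9 measured genes in 6 GFP (green) and 6 hApoF (purple) livers, with the sample number beside each point and the mean ± SD as bars. Groups overlapped in every panel; in Psmb9, 4 hApoF samples lay below all GFP samples, and in H2-T23, 5 lay above all of them.

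B2m encodes beta-2 microglobulin, the invariant light chain that every class I molecule needs to fold. Its values ran from 12.95 to 13.07 in GFP livers (median 13.01) and from 12.91 to 13.07 in hApoF livers (median 13.05). The hApoF values thus covered nearly the same span as the GFP values. The means were 13.01 ± 0.04 (SD, n = 6) and 13.03 ± 0.06 (n = 6), and the log2 difference of 0.02 had an SE of 0.06 (limma adjusted p = 0.899). The 95% interval ran from -0.11 to 0.14. B2m stood at percentile 99.9 of all genes by level, where the highest value of each array was 13.4 to 13.55, and whether the arrays compress differences at this level was not tested. The sign turned when arrays were centred on their medians (-0.014) or quantile normalized again (-0.034).

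H2-K1 encodes a classical class I heavy chain, the chain that binds the peptide. It ranged from 10.89 to 10.99 in GFP livers (median 10.91) and from 10.88 to 11.15 in hApoF livers (median 11.02). Of the hApoF samples 3 lay above every GFP sample and 1, hApoF 12, below every one. The mean difference was 0.08 (SE 0.06, 95% interval -0.05 to 0.22, limma adjusted p = 0.502, exact permutation p = 0.0974). Class I heavy chain genes have near-identical copies, so a probe set assigned to H2-K1 may also take up RNA of its relatives.

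H2-T23 encodes Qa-1, a nonclassical class I molecule that shows leader peptides of other class I chains to inhibitory receptors on NK and T cells. The GFP samples read 8.39, 8.23, 8.36, 8.31, 8.28 and 8.24 in the order 1 to 6. The hApoF samples 7 to 12 read 8.42, 8.46, 8.60, 8.65, 8.43 and 8.22. All hApoF samples but hApoF 12 lay above the highest GFP value, and hApoF 12 lay below the lowest. The group means were 8.30 ± 0.07 (SD, n = 6) and 8.46 ± 0.15 (n = 6). The difference of 0.16 (SE 0.08, 95% interval -0.00012 to 0.33) had an exact permutation p of 0.0368 and did not pass after adjustment (limma adjusted p = 0.235).

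Upstream sequence is shown for these 3 genes, as the class I chains measured by name, and for Psmb9, the gene with the largest difference of the 9. The sequences are RefSeq's, from GRCm38.p6, 5′ to 3′ on the strand of the gene, and end at the base before the listed start of transcription. They cover chr2:122147437-122147686 (B2m, + strand), chr17:34000348-34000597 (H2-K1, - strand), chr17:36032702-36032951 (H2-T23, - strand) and chr17:34187331-34187555 (Psmb9, - strand). The Psmb9 stretch holds all bases between its start and that of Tap1, which is transcribed in the opposite direction. For H2-K1, which has 2 listed starts, that farther upstream was taken. Capitals mark matches, on either strand, to interferon response elements (GAAANNGAA or GAANNGAAA, which can overlap), the interferon gamma activated site (TTCNNNGAA), the kappa B motif (GGGNNTTNC), CCAAT and the core of the cyclic AMP element (TGACG).
B2m: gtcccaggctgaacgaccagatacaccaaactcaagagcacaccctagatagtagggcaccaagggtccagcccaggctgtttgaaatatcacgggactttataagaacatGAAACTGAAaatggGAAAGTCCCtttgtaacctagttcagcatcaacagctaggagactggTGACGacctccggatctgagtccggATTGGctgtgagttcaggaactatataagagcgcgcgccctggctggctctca
H2-K1: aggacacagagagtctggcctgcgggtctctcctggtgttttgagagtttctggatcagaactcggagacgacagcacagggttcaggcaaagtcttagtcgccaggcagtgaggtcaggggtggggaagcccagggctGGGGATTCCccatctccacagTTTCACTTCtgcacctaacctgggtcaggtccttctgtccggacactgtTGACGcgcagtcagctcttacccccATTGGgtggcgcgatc
H2-T23: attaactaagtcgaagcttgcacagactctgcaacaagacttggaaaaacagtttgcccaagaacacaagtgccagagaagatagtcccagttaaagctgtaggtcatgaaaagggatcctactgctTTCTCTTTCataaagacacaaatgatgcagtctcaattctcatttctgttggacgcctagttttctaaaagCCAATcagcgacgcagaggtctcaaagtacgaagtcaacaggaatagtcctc
Psmb9: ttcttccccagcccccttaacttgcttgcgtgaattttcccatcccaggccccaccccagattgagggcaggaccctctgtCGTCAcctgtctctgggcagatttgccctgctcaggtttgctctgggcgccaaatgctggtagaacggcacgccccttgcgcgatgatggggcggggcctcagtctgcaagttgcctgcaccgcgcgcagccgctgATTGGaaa

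The 3 class I chain sequences share an order of marks, with an interferon element farther from the start than CCAAT, and B2m and H2-K1 have a kappa B match beside it. The Psmb9 stretch has only the cyclic AMP core and CCAAT, which says no more than that the other letters are not in that window. Of the 10 genes 8 had an entry in the RefSeq table. Among the 250 bases before their starts GAAANNGAA stood in 2 (B2m and H2-T23), against 7.13% of all 32851 promoters, and GAANNGAAA in 2 (H2-K1 and H2-D1), against 6.31%. The kappa B letters stood in 3 (B2m, H2-K1 and H2-D1), against 13.0%, and the interferon gamma activated site in Psmb8 alone, against 7.02%. CCAAT was found in 6, against 33.8%, and TGACG in 4, against 17.8%. A match is a description of letters and not a site in use, and the motifs were chosen with these sequences in view.

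Tap2 and Tapbp belong to the loading step. Tap2, one of the paired TAP transporter chains, ranged from 5.48 to 5.80 in GFP livers (median 5.61) and from 5.46 to 5.89 in hApoF livers (median 5.68). In Tap2 4 of the 6 hApoF samples lay inside the GFP range, and the difference was 0.06 (SE 0.08, 95% interval -0.11 to 0.24, limma adjusted p = 0.713). Tapbp, which encodes tapasin, ranged from 7.99 to 8.40 (median 8.05) and from 7.91 to 8.45 (median 8.28). Its difference was 0.15 (SE 0.10, 95% interval -0.06 to 0.36, limma adjusted p = 0.418), with 2 hApoF samples above every GFP sample and 1, hApoF 12, below. The second Tapbp probe set, dimmer at 5.26 ± 0.14 (SD, n = 6) and 5.22 ± 0.19 (n = 6), differed by -0.04 (SE 0.10, limma adjusted p = 0.849 over all single-gene probe sets). The probe sets of Tapbp thus had opposite signs, and neither passed, where 6.7% of all single-gene probe sets did.

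Psmb8, Psmb9 and Psmb10 encode the inducible catalytic subunits that replace Psmb5, Psmb6 and Psmb7 when an immunoproteasome is built. Psmb8 read 7.10 to 7.58 in GFP livers (median 7.41) and 7.01 to 7.57 in hApoF livers (median 7.35). Psmb10 read 7.72 to 8.41 (median 7.92) and 7.75 to 8.14 (median 7.92). For both genes the medians differed by less than the spread within either group, with differences of -0.06 (SE 0.10, 95% interval -0.27 to 0.15, limma adjusted p = 0.769) in Psmb8 and -0.05 (SE 0.11, 95% interval -0.28 to 0.18, limma adjusted p = 0.827) in Psmb10. The sign turned without hApoF 12 in Psmb8, also without that array and GFP 4, and after renewed quantile normalization, and without GFP 3 in Psmb10.

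Psmb9 had the largest difference of the 9. The GFP samples 1 to 6 read 6.75, 6.54, 7.15, 6.50, 6.56 and 6.74, and the hApoF samples 7 to 12 read 6.13, 6.21, 6.86, 6.64, 6.36 and 5.93. Of the hApoF samples 4 lay below every GFP sample, while hApoF 9 and hApoF 10 lay within the GFP range. The means were 6.71 ± 0.24 (SD, n = 6) and 6.35 ± 0.34 (n = 6). The difference of -0.35 (SE 0.15, 95% interval -0.67 to -0.03), 1.28 times less in hApoF livers, had an unadjusted limma p of 0.0320 and an exact permutation p of 0.0714, and did not pass after adjustment (limma adjusted p = 0.185). It stayed short of the threshold in all 19 alternatives tried, with limma adjusted p from 0.0691 to 0.349.

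Whether the inducible and constitutive subunits of a position changed unequally was tested on their log2 difference in each sample. Psmb8 minus Psmb5 shifted by 0.10 between the groups (exact permutation p = 0.439), Psmb9 minus Psmb6 by -0.31 (p = 0.0866) and Psmb10 minus Psmb7 by 0.02 (p = 0.879). For Psmb9 minus Psmb6 the group means were -1.68 ± 0.24 (SD, n = 6) and -1.99 ± 0.32 (n = 6), and 4 of 6 hApoF samples lay below all GFP samples. After Benjamini-Hochberg adjustment over the 3 pairs none passed (exact permutation, adjusted p = 0.659, 0.260 and 0.879). The constitutive partners themselves differed by -0.16 (Psmb5), -0.04 (Psmb6) and -0.07 (Psmb7), and none of the 3 passed, nor did any at an unadjusted limma p of 0.05.

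Nlrc5 encodes the transactivator that drives class I genes, their light chain and parts of the loading machinery. The GFP samples 1 to 6 read 6.93, 7.04, 7.36, 6.51, 7.13 and 6.98, and the hApoF samples 7 to 12 read 6.76, 6.67, 6.83, 6.66, 6.92 and 6.70. All hApoF samples lay below the GFP samples other than GFP 4, and GFP 4 lay below all hApoF samples. The means were 6.99 ± 0.28 (SD, n = 6) and 6.76 ± 0.10 (n = 6), a difference of -0.24 (SE 0.11, 95% interval -0.48 to 0.00404, limma adjusted p = 0.244, exact permutation p = 0.0801). Without GFP 4 the difference was -0.33 (SE 0.09) and passed (limma adjusted p = 0.0293). With hApoF 12 left out as well it was -0.32 (limma adjusted p = 0.0468). Without GFP 3, the highest GFP sample, the difference was -0.16 (SE 0.10, limma adjusted p = 0.445). Over all 19 alternatives the limma adjusted p ran from 0.0293 to 0.445. Nlrc5 did not pass with all arrays, and passed only in the 2 alternatives that left out GFP 4.

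**Figure D2:**
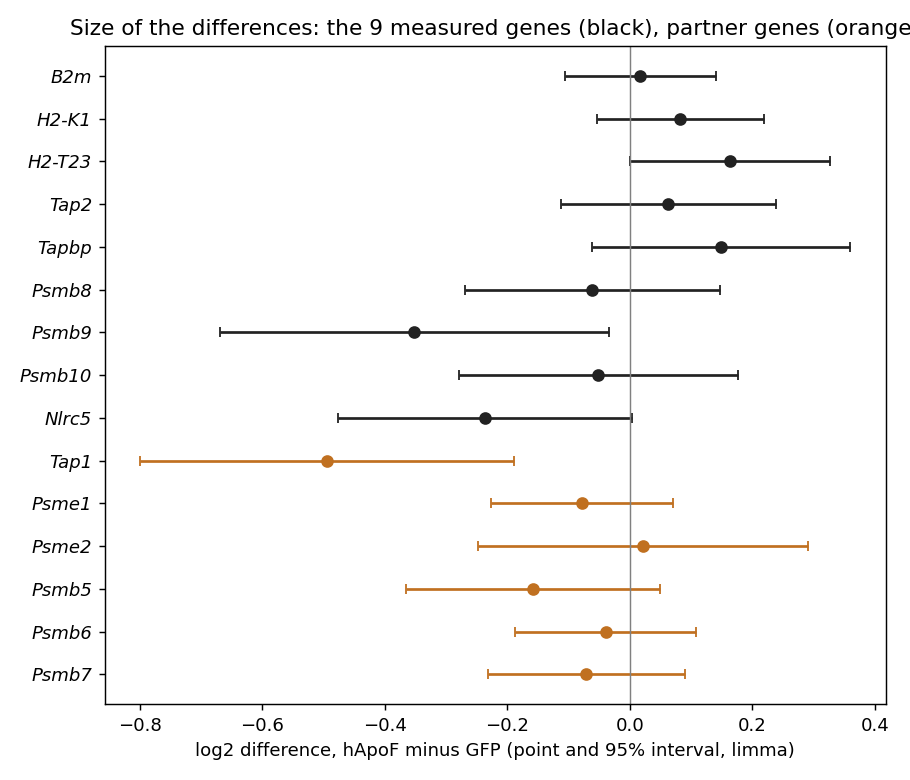
Log2 difference, hApoF minus GFP (horizontal axis; points, with bars for the 95% interval from limma, unadjusted), for the 9 measured genes in black and 6 partner genes in orange. Intervals of 8 of the 9 measured genes include 0, that of Psmb9 ends at -0.03, and Tap1 has the most negative difference shown, -0.49.

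Tap1, the other chain of the TAP transporter, is not among the 10 genes and was singled out after its values were seen. It lies next to Psmb9 on chromosome 17, where the gene order is Psmb9, Tap1, Psmb8 and Tap2, and it starts at the far end of the stretch printed above. Its values were 8.56, 8.19, 8.99, 8.17, 8.28 and 8.38 in GFP samples 1 to 6 and 7.50, 8.06, 8.13, 8.15, 8.00 and 7.75 in hApoF samples 7 to 12. No hApoF sample reached the lowest GFP sample. The difference was -0.49 (SE 0.14, 95% interval -0.80 to -0.19), 1.41 times less in hApoF livers, with an exact permutation p of 0.0022, the smallest this design can give, and a limma adjusted p of 0.0505, just short of the threshold. It passed in 4 of 19 alternatives, among them without GFP 4 (limma adjusted p = 0.0354), over a range of 0.0256 to 0.104. Psmb9 and Tap1, which start at opposite ends of that stretch, had differences of -0.35 and -0.49, and their neighbours Psmb8 and Tap2 had -0.06 and 0.06. Neither Psmb9 nor Tap1 passed with all arrays. Whether the stretch between them has a part in their values was not tested.

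The samples of each group differed among themselves in a way that the 9 genes shared. After each gene's group mean was taken away, GFP 3 lay above the mean in all 9 genes and was the highest GFP sample in 7. In the same way hApoF 9 lay above in 9 of 9 and hApoF 12 below in 9 of 9. The mean deviation over the 9 genes was 0.23 in GFP 3, 0.19 in hApoF 9 and -0.21 in hApoF 12, against -0.11 to 0.10 in the other 9 samples. Each of these 3 deviations was larger in size than the difference between the groups in 7 of the 9 genes.

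**Figure D3:**
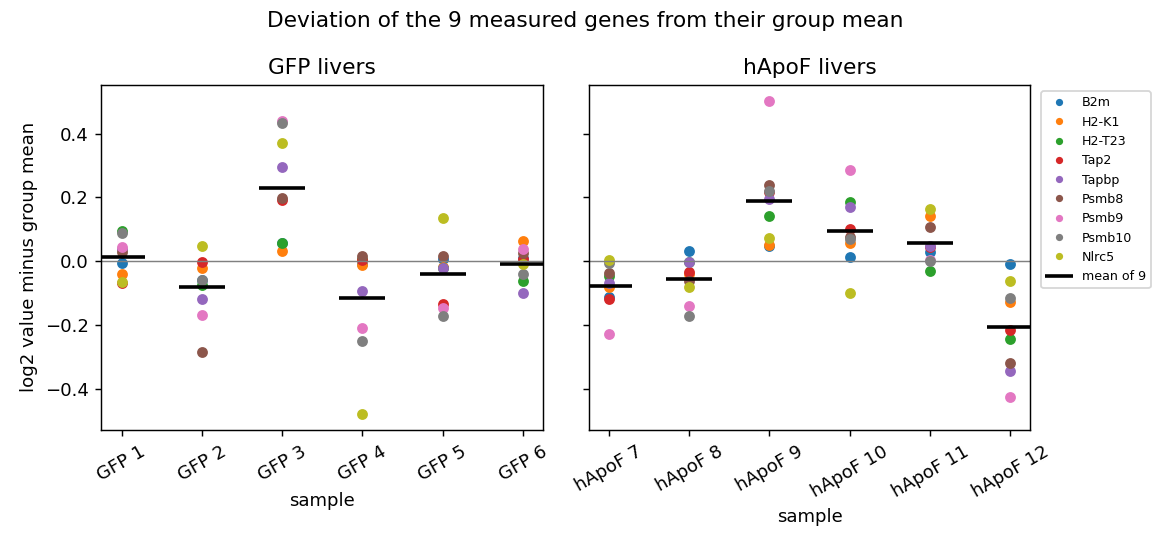
Log2 value minus the group mean (vertical axis) for each of the 9 measured genes (coloured points) and their mean (black bars) in the 6 GFP samples (left) and 6 hApoF samples (right). GFP 3 and hApoF 9 lie above 0 in all 9 genes and hApoF 12 below 0 in all 9.

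As a description over the 12 samples, which share one normalization, deviations of all 36 pairs of the 9 genes correlated above 0. Pearson's r ran from 0.03 (H2-T23 with Nlrc5) to 0.91 (Tapbp with Psmb9), with a median of 0.61. Psmb9 followed the mean of the other 8 most closely (r = 0.95) and Nlrc5 least (r = 0.44). Among 19386 other named genes, those whose deviations were most like the mean of the 9 were Smad7, an inhibitor of TGF-beta signalling (r = 0.94), Cdkn1a, the cyclin-dependent kinase inhibitor p21 (0.92), the interferon-induced chemokine gene Cxcl10 (0.92), the centromere gene Cenpp (0.92) and Uba7, the enzyme that activates the ubiquitin-like protein ISG15 (0.92). Each r was picked as among the highest of 19386 over 12 samples, which makes it larger than a gene named beforehand would give. The likeness was not tested, and GFP 3, hApoF 9 and hApoF 12 had the largest mean deviations in it. The genes named differed between the groups in different degrees, Cdkn1a by -2.29 (limma adjusted p = 8.2e-06), Cenpp by -0.76 (limma adjusted p = 0.0057), Cxcl10 by -0.74, Smad7 by -0.28 and Uba7 by -0.08, the last 3 without passing. Of 30 interferon-stimulated genes 28 had deviations correlating above 0 with the mean of the 9, with a median r of 0.66, against 0.04 over the other named genes.

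The wider pathway was described with lists of genes by role, each set beside the median difference of 0.03 over all genes and the 2.11% of all genes that were higher and 4.8% that were lower. An unadjusted limma p under 0.05 was reached by 21.3% of all genes, and counts at that cut are read against this share. Among 20 further measured members of the class I heavy chain family, 2 rose, 0 fell and 18 did not pass (median difference 0.07). H2-Q1, a class I gene of the Q region, rose from 5.55 ± 0.20 (SD, n = 6) to 6.00 ± 0.15 (n = 6), by 0.45 (SE 0.10, limma adjusted p = 0.0125). It ranged from 5.30 to 5.81 in GFP livers and from 5.75 to 6.13 in hApoF livers, so that the groups overlapped, and copies of its sequence in the family make its identity uncertain. Mr1, which presents vitamin B metabolites to MAIT cells, rose from 7.67 ± 0.28 (SD, n = 6) to 8.26 ± 0.25 (n = 6), by 0.59 (SE 0.14, limma adjusted p = 0.0152), or 1.51-fold. Both kept their calls in all 19 alternatives.

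Of 18 measured genes of peptide loading and trimming, Tap1 included, 1 rose, 1 fell and 16 did not pass (median difference -0.01). Lap3, a leucine aminopeptidase that interferon gamma induces, rose by 0.35 (SE 0.08, limma adjusted p = 0.0137), and Blmh, bleomycin hydrolase, a cytosolic peptidase, fell by 0.29 (SE 0.07, limma adjusted p = 0.0132). In both genes the groups did not overlap, and both kept their calls in all 19 alternatives. The list held 2 lower genes without GFP 4, when Tap1 passed and 1988 of all genes did, against 1533 with all arrays.

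None of the 9 measured proteasome activators and assembly factors passed, and 1 had an unadjusted limma p under 0.05. The lowest p were those of the assembly chaperone genes Psmg2, with a difference of -0.17 (limma adjusted p = 0.173), and Psmg1, with -0.14. Psme1 and Psme2, the interferon-inducible activator chains that were picked out after their values were seen, differed by -0.08 and 0.02. The sign of Psme2 turned in 6 of 19 alternatives. These were the omission of GFP 1, 2 or 3 or of hApoF 9 or 10, and centred arrays. None of the 10 measured further subunits of the proteasome core passed, and 2 had an unadjusted limma p under 0.05, namely Psmb2 with a difference of -0.22 (limma adjusted p = 0.105) and Psma5 with 0.18 (limma adjusted p = 0.226). Psmb2 passed when genes below the median level were left out (limma adjusted p = 0.0462, over alternatives 0.0462 to 0.220).

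Of 16 measured genes of class I transcriptional control 1 fell, 0 rose and 15 did not pass. Of the 16 differences 13 lay below 0 (median -0.12), where 57.7% of all genes lay above 0. All 16 genes lay above the median level of all genes, and the 11090 genes above that level had a median difference of -0.018. The one that fell was Rfxank, a subunit of the RFX complex that holds Nlrc5 and the class II transactivator on their promoters, by 0.30 (SE 0.08, limma adjusted p = 0.0314). Its level went from 7.47 ± 0.12 (SD, n = 6) to 7.17 ± 0.13 (n = 6). Omitting any of 6 arrays (GFP 2, 3 or 5, or hApoF 7, 10 or 12) ended the call and left the list at 0 genes. Of all genes 1015 to 1395 passed in those settings, against 1533 with all arrays. Over all alternatives the limma adjusted p of Rfxank ran from 0.0117 to 0.0943. Without GFP 4 the list had 2 lower genes, when 1988 of all genes passed in either direction, against 1533 with all arrays.

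Interferon signalling stands upstream of these genes. That list had 11 genes, namely the receptor chains Ifngr1, Ifngr2, Ifnar1 and Ifnar2, the kinases Jak1, Jak2 and Tyk2, the inhibitors Socs1, Socs3 and Ptpn2, and Ifng itself. None of the 11 passed, and 3 had an unadjusted limma p under 0.05. The receptor chain genes Ifngr2 and Ifnar2 differed by 0.21 (limma adjusted p = 0.140) and 0.13 (limma adjusted p = 0.199), and the groups did not overlap in Ifnar2. The largest difference of the list was that of Socs3, 0.33, picked out after its value was seen. Without GFP 5, 1 gene of this list was higher. None of the 30 measured interferon-stimulated genes passed. Of these, 8 had an unadjusted limma p under 0.05, 7 of them lower and 1 higher, where 2467 of all genes (11.1%) were lower and 2249 higher at that cut. Of the 30 genes 26 lay above the median level of all genes, and genes above that level had a median difference of -0.018. No share at the unadjusted cut was taken for that level. Differences lay below 0 in 22 of the 30 (median -0.19), against 42.3% of all genes, a share over all levels. The lowest p were those of Usp18, a protease that removes ISG15, with a difference of -0.54 (SE 0.17, limma adjusted p = 0.0668), and Cxcl10, with -0.74 (SE 0.23, limma adjusted p = 0.0696). The list had 4 lower genes without GFP 4 and 2 without hApoF 9. Of all genes 1988 and 1203 passed in either direction in those settings, against 1533 with all arrays.

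**Figure D4:**
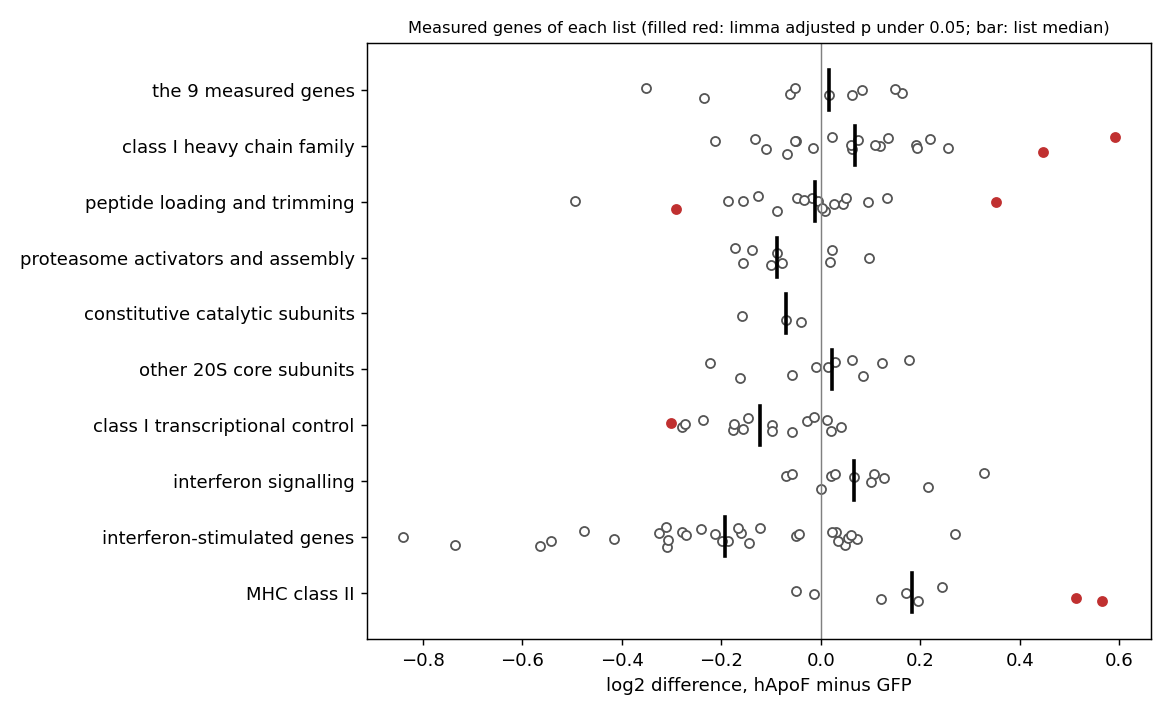
Log2 difference, hApoF minus GFP (horizontal axis), of every measured gene in the 9 described genes and in 9 further lists (rows); filled red points passed at a limma adjusted p under 0.05 and vertical bars are list medians. No gene of the first row is red, and the medians run from -0.19 for interferon-stimulated genes to 0.18 for MHC class II genes.

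MHC class II genes serve presentation to CD4 T cells. Their list had 8 measured genes, of which 2 rose and the other 6 did not pass, with a median difference of 0.18. H2-Ab1, a class II beta chain, rose by 0.51 (SE 0.10, limma adjusted p = 0.0058), and H2-Aa, the alpha chain that pairs with it, by 0.57 (SE 0.14, limma adjusted p = 0.0246). The count was 1 when GFP 2, GFP 6, hApoF 11 or hApoF 12 was omitted, since H2-Aa then missed the threshold. The difference of H2-Aa was 0.51 to 0.55 in those settings. Of all genes 1019, 1021, 1380 and 1395 passed in them, against 1533 with all arrays. Whether the class I and class II genes differ in their change was not tested.

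Markers of liver cell types were counted in the same way. Of all genes 2.11% were higher and 4.8% lower. Of 14 macrophage and Kupffer cell markers 3 rose (Clec4f, Vsig4 and Cd163), with a mean list level per array of 6.67 to 7.61 in GFP and 7.13 to 7.88 in hApoF livers. The other 11 did not pass, with differences from -0.13 (Adgre1) to 0.81 (Timd4), and the list median was 0.13. Among the general macrophage markers Cd68 differed by 0.02 and Lyz2 by -0.13, and 2 of the 14 lay below 0. In the endothelial list 3 of 12 rose (Kdr, Tek and Fcgr2b), with ranges of 8.04 to 8.54 and 8.35 to 8.69, and in the stellate cell and fibroblast list 3 of 11 rose, with ranges of 7.16 to 7.47 and 7.42 to 7.75. Of 19 T and NK cell markers 1 rose, Zap70, a T cell kinase, with ranges of 4.79 to 5.03 and 4.91 to 5.08, and 5 of the 19 lay above the median level of all genes. Of 8 neutrophil markers 2 rose, S100a9 (mean 3.97 to 4.37) and Mmp8 (4.25 to 4.77), both below the median level of all genes. None of the measured B cell (7), dendritic cell (8), bile duct (6) or hepatocyte (11) markers passed, with 1, 1, 3 and 5 at an unadjusted limma p under 0.05, a cut reached by 21.3% of all genes. The 5 hepatocyte markers at that cut were all higher. Of the 11 hepatocyte markers 9 lay above 0 (median difference 0.12), against 57.7% of all genes. Groups did not overlap in 3 of the 11, against 4.98% of all genes. No marker fell. The part of these cells in the values of H2-Q1, Mr1 and the class II genes was not tested.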

How the data were processed

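Liver RNA from 12 samples was measured on 1 mouse gene array each. The authors deposited log2 values per probe set. Per the submitters' processing notes these came from oligo and RMA, which corrects background, quantile normalizes and summarises by median polish. The genome build and tool versions are unstated in the sources used here. Dim probe sets were kept, and nothing was scaled further. The platform annotation, which can be old, gave 23521 of 35145 probe sets 1 gene symbol, 1814 several and 9810 none. Those with several or none stayed out, and the probe set with the highest mean stood for each of 22180 genes.

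Groups were compared with limma 3.58.1 in R 4.3.3 (lmFit and eBayes, Benjamini-Hochberg adjustment over all genes), and single values also with an exact two-sided permutation test over 924 assignments. The fit was tested on simulated data. The number of arrays limits the precision. The genes and lists were chosen with earlier results of these data known. Named are the 9 measured genes, per list up to 4 genes that passed, taken by lowest p (2 where none passed), and the 5 genes most like the 9, predicted genes left out. Any other gene was chosen after its values were seen. Upstream sequences are RefSeq's (GRCm38.p6). Alternatives left out samples and changed scaling, moderation, probe set choice and the set of features tested.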

Additional observations from a re-analysis of the deposited data

Results flagged for a closer look

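B2m in hApoF 7 read 12.91, below the other hApoF samples (13.02 to 13.07), a gap large for a group of 6. Psma5, a proteasome core subunit gene, read 3.93 in GFP 3 against 4.24 to 4.42 in the other GFP samples. These were 2 of 60 groups of values examined, where chance alone gives about 1 in 20.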

How the results depend on the processing

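The count of higher genes among the 9 was 0 in all 19 alternatives. The count of lower genes was 0, except 1 (Nlrc5) when GFP 4 was omitted, alone or with hApoF 12, and so ran from 0 to 1 over omissions of 1 array. Without both arrays the peptide loading list had 2 lower genes and the class II list 1 higher, when 2049 of all genes passed in either direction. The peptide loading list also had 2 lower genes with centred arrays, with trend and robust settings and among genes above the median level. Among those brighter genes 1 heavy chain gene, 1 core proteasome gene, 2 control genes and 2 interferon-stimulated genes were lower, out of 14, 9, 16 and 26, where 12.8% of all 11090 brighter genes were lower. Control genes numbered 2 with trend and robust settings and 0 after renewed quantile normalization. Over omissions of 1 array lower counts ran from 0 to 1 (heavy chains), 1 to 2 (peptide loading), 0 to 2 (control) and 0 to 4 (interferon-stimulated), and higher counts from 0 to 1 (interferon signalling) and 1 to 2 (class II). Signs turned only where no call was made. B2m was -0.014 with centred arrays and -0.034 quantile normalized, Psmb8 0.0065 without GFP 4 and hApoF 12 and 0.0056 quantile normalized, Psmb6 0.0084 without both arrays, Psme2 -0.0089 with centred arrays, and the shift of Psmb10 minus Psmb7 -0.055 without both. Over omissions of 1 array Psmb8 ran from -0.12 to 0.0031, Psmb10 from -0.10 to 0.035, Psmb6 from -0.067 to 0.0018, Psme2 from -0.051 to 0.089 and Psmb10 minus Psmb7 from -0.031 to 0.100. The cause of these changes was not tested. No paired analysis was possible because the groups share no replicate number. Differences as small as those of B2m or Tap2 lie within the error of 6 against 6 arrays.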
